A study of Mus musculus with 6 samples.

Results

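The genes described here are the Wnt ligands, the proteins that let a cell secrete them, their Frizzled receptors and LRP co-receptors, and the secreted proteins that block or strengthen the signal. Members were every row of the deposited expression table whose mouse gene symbol began with Wnt, Fzd, Sfrp, Dkk, or Rspo followed by a number, together with Frzb, Wif1, Lrp5, Lrp6, Porcn, and Wls. This rule found 44 of the 27546 genes in the table, of which 43 were protein-coding genes and 1, Rspo4os, was an antisense transcript within Rspo4. Wnt7a, Wnt8a, Dkk1, and Dkk4 matched no row and were not analysed here.

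Whole distal colon of 3 Gm31629-/- mice and of 3 WT littermates, all C57BL/6 by the labels (C57BL/6J in the methods), was used for RNA-Seq, with 1 library per mouse. In Gm31629-/- mice a stretch of chromosome 1 with the long noncoding RNA gene Gm31629 was deleted. All 6 mice were 8 weeks old, drank 3% DSS (dextran sulfate sodium, which injures the colonic epithelium) for 7 days, and were killed on day 8, so genotypes were compared under injury and untreated mice were not analysed here. The methods speak of RNA pooled from 3 mice of each genotype, but the table holds a column per mouse, and the columns were treated as separate mice.

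Wnt proteins are lipid-modified signals that act over short distances. In the colon, much of the Wnt supply of the crypt base comes from the mesenchyme beneath the epithelium, and a Wnt bound to a Frizzled receptor and to LRP5 or LRP6 stabilizes beta-catenin, which keeps crypt stem cells dividing. R-spondins strengthen this signal by holding Frizzled receptors at the cell surface, while secreted Frizzled-related proteins and WIF1 capture Wnts, and most Dickkopf proteins occupy the LRP co-receptors.

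Values are FPKM, that is, fragments divided by gene length and by library depth, so that levels of different genes can be set side by side. The libraries held 18006000 to 18795100 mapped fragments by the estimate recovered from the FPKM values. A gene was tested where its mean over the 6 mice reached 0.5 FPKM, which 24 of the 44 genes did. It was called higher or lower at a limma adjusted p under 0.05 over all 14657 tested genes together with a log2 fold change above 1 or below -1 on the scale of log2(FPKM + 1), which understates the change of low genes. The median of all tested genes on this scale was 0.15, and it was -0.06 once libraries were rescaled by their median ratios to a geometric mean library. An exact permutation test of 1 gene over 3 mice in each group can reach no p under 0.10. All 4 Y-linked genes examined had transcripts and Xist was at 0.00606 FPKM in Gm31629-/- mouse 1, whereas the other 5 libraries had 0 FPKM of all 4 genes and 8.35 to 13.8 FPKM of Xist, so mouse 1 differed from the others in sex-linked transcripts. The methods give the mice as male, which these transcripts matched in 1 of the 6 libraries.

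The libraries also differed in markers of cell types, and these are given before the results on the Wnt genes. All 12 fibroblast markers were called higher, their median log2 fold change was 3.13, and their summed level in Gm31629-/- mice was 293 to 853 FPKM against 30 to 53.5 FPKM in WT mice. Of 12 smooth muscle markers, 11 were called higher, and their sum was 1604 to 2618 FPKM against 28.3 to 54.3 FPKM. Markers of endothelium (8 of 8), macrophages (8 of 8), and enteric neurons and glia (11 of 12) were called higher as well. Over all tested genes, 18.4% were called higher and 4.64% lower. Some called markers had a WT mean below 0.5 FPKM and so were tested only through Gm31629-/- mice, which favors a higher call. These were 11 of neurons and glia, 5 of endothelium, 3 of macrophages, 2 of fibroblasts, and 2 of smooth muscle. Of 14 epithelial markers, 4 were called lower, namely Krt8, Krt19, Cdx1, and Cdx2, and the sum of all 14 was 7997 to 9511 FPKM against 12898 to 14040 FPKM in WT mice. Epcam, a defining marker of epithelium, had a mean of 1109 FPKM in Gm31629-/- mice and 1104 FPKM in WT mice, so the tissue label held in both groups. In whole tissue, more cells of a type, more RNA per cell, and a different share of tissue layers in the sample cannot be told apart. The part of cell makeup or of sampling in the results below was not tested.

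The promoters of 4 genes are shown. Of these genes, Rspo1, Sfrp2, and Sfrp5 had almost no transcript in WT mice and were called higher in Gm31629-/- mice. The receptor gene Fzd5, in contrast, was abundant in both groups. Each promoter is the 250 bases before the RefSeq start site on GRCm38.p6, written 5′ to 3′ on the strand of the gene. Capitals mark a match on either strand to 1 of 6 motifs. The TATA box was searched as TATAAA and the GC box as GGGCGG. The motif that the TCF and LEF factors bind was searched as CTTTGAT and that of AP-1 as TGACTCA. The fifth was CCAAT, and the sixth was the CArG box bound by serum response factor.
Rspo1, chr4:124986180-124986429, plus strand: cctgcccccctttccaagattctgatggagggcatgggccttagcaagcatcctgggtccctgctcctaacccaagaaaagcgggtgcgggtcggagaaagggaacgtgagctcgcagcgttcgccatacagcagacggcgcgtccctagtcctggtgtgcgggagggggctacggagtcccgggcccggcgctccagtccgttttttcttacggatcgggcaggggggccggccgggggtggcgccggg
Sfrp2, chr3:83766071-83766320, plus strand: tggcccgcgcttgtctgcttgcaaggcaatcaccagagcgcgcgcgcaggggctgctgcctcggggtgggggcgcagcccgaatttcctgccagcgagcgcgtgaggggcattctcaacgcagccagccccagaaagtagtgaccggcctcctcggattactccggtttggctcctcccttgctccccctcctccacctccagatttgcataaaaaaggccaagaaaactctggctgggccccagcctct
Sfrp5, chr19:42202253-42202502, minus strand: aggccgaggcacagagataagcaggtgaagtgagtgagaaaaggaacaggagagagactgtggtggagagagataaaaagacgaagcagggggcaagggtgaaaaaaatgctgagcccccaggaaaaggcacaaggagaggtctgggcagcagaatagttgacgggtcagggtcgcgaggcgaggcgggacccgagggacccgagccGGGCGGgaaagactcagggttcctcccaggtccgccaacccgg
Fzd5, chr1:64737751-64738000, minus strand: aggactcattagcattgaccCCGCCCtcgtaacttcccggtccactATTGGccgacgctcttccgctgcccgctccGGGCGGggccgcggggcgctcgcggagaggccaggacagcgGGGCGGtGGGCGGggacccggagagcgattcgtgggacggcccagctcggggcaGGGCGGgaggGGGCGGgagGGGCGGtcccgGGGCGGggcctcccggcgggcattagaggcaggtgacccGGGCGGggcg
No motif of the 6 occurred in the Rspo1 or Sfrp2 stretch, and 1 GC box lay in that of Sfrp5, whereas GC boxes recurred along that of Fzd5 beside 1 CCAAT match. RefSeq promoter windows of 300 bases, reaching 50 bases past the start, were at hand for 28 of the 44 genes as 31 entries. The GC box was in 24 of these 31 windows and in 35.7% of all 32851 promoter windows of the genome. Among genes called higher, Wnt4, Wnt2b, Fzd4, Frzb, Sfrp5, and Wnt5b (in some of its windows) had it, and Rspo1 and Sfrp2 did not. Among genes tested but not called, Fzd5, Fzd7, Wnt6, Wls, and Wnt11 had it, and Fzd1 did not. The printed genes were picked by their expression, so they do not stand for called and uncalled genes. The TCF/LEF motif, the DNA letters through which beta-catenin acts on its targets, was in 2 windows, of Wnt5b and Wnt11, and in 3.73% of all windows. CCAAT was in 11 windows (37.4% of all), the TATA box in 4 (13.6% of all), the AP-1 motif in 1 (5.20% of all), and the CArG box in 0 (1.63% of all). Matches could overlap one another, and a match is a description of the letters only. The windows of these genes held a median of 26 CpG dinucleotides, against 7 over all windows.

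In Gm31629-/- mice, 14 of the 24 tested Wnt genes were called higher and 0 were called lower, while 18.4% of all tested genes were called higher and 4.64% were called lower. At an unadjusted p under 0.05 with the same fold threshold, 15 were higher and 0 lower by limma, and by voom on recovered fragments 16 were higher and 0 lower at the adjusted p. The median log2 fold change of the 24 was 1.37. The 14 genes were Wnt5a, Wnt4, Wnt5b, and Wnt2b among the ligands, Porcn of the secretion machinery, Fzd4 and Fzd2 among the receptors, Sfrp1, Sfrp2, Sfrp5, and Frzb among the Wnt-binding inhibitors, and Dkk3, Rspo3, and Rspo1. The 3 values of one group lay outside the range of the other group for 20 of the 24 genes. Of these, 17 were higher in Gm31629-/- mice, where 36.3% of all tested genes were, and 3 were lower, where 21.5% of all tested genes were. Because 10 of the 24 genes reached the filter only through Gm31629-/- mice, with a WT mean below 0.5 FPKM, the counts over tested genes lean toward higher calls by construction. Of the 14 genes with a WT mean of at least 0.5 FPKM, 6 were called higher, 0 lower, and 8 were not called, and over all 12450 such genes 11.4% were called higher and 5.46% lower.

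**Figure D1:**
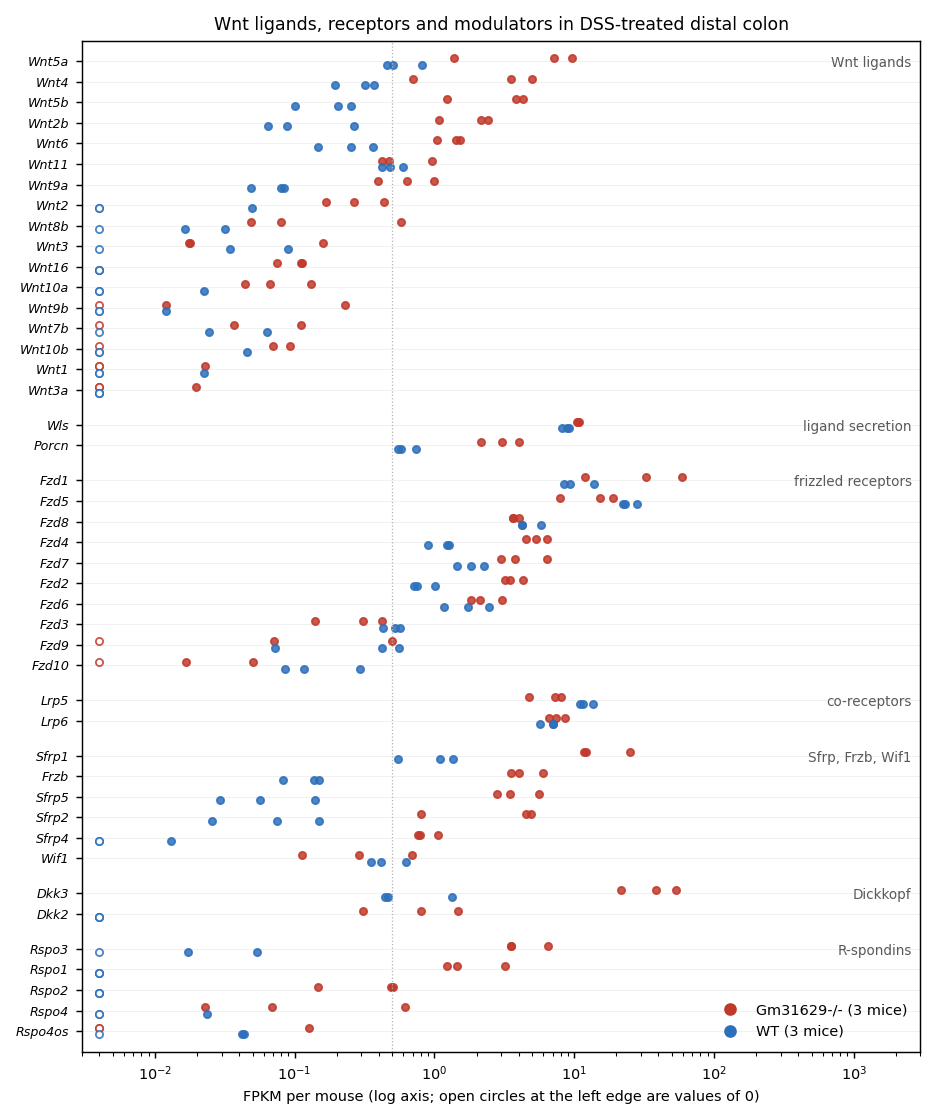
FPKM of all 44 Wnt genes on a log axis, with 1 point per mouse, red for Gm31629-/- and blue for WT, and open circles for values of 0. The dotted line is the filter of 0.5 FPKM, applied to the mean over the 6 mice. Red points lie to the right of all blue points for most secreted inhibitors and R-spondins, whereas Wls, Fzd8, and Lrp6 sit close together in both groups.

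Among 17 ligand genes, 6 were tested, and 4 of them were called higher in Gm31629-/- mice, where 18.4% of all tested genes were. Of the 6, 5 reached the filter only through Gm31629-/- mice, which favors a higher call. Among these 5 were the called genes Wnt4, Wnt5b, and Wnt2b, whereas Wnt5a had a WT mean above the filter. Wnt5a, the main ligand of the beta-catenin-independent branch, had 1.38, 9.63, and 7.21 FPKM in Gm31629-/- mice 1 to 3 and 0.504, 0.809, and 0.456 FPKM in WT mice 1 to 3. The groups did not overlap, but mouse 1 stood far closer to the WT mice than mice 2 and 3 did. The mean was 6.07 ± 4.24 FPKM against 0.590 ± 0.192 FPKM (SD, n = 3 each), a log2 fold change of 1.90 (standard error, SE, 0.52, limma adjusted p = 0.0234). Wnt5a (ENSMUSG00000021994) lies on chromosome 14 from 28504750 to 28527448 of GRCm38, and 358 of its 7823 exonic bases overlap Gm2670 on the other strand, whose level did not exceed 0.329 FPKM. Wnt4, a ligand with a known part in kidney and reproductive tract formation, had 0.70, 4.99, and 3.56 FPKM in Gm31629-/- mice and 0.193, 0.371, and 0.317 FPKM in WT mice. Its spread had the same shape, with mouse 1 lowest (log2 fold change 1.48, SE 0.44, limma adjusted p = 0.0302). Wnt5a was called in 1 of the 6 fits that each left out 1 mouse, with an adjusted p of up to 0.0798, and Wnt4 in 1 of 6, with an adjusted p of up to 0.0894. That fit was the one without Gm31629-/- mouse 1, and leaving out any other mouse of either group ended both calls. Across these 6 fits, each with fewer mice, the log2 fold change was 1.48 to 2.56 for Wnt5a and 1.11 to 2.02 for Wnt4.

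Wnt5b, the close relative of Wnt5a, had 1.23, 4.29, and 3.81 FPKM in Gm31629-/- mice and 0.204, 0.251, and 0.10 FPKM in WT mice. All Gm31629-/- values were above all WT values (log2 fold change 1.70, SE 0.33, limma adjusted p = 0.00639). Wnt2b, a ligand made by colonic mesenchyme that supports crypt stem cells, had 1.07, 2.40, and 2.14 FPKM against 0.0643, 0.264, and 0.0887 FPKM. Its 3 mutant mice were closer to each other than those of Wnt5a (log2 fold change 1.31, SE 0.22, limma adjusted p = 0.00390). Wnt5b and Wnt2b were called in 6 of 6 fits that each left out 1 mouse. Wnt6 had 1.04, 1.43, and 1.51 FPKM against 0.148, 0.253, and 0.364 FPKM, again without overlap, and missed the fold threshold with a log2 fold change of 0.89 (SE 0.16, limma adjusted p = 0.00502). With a pseudocount of 0.1 in place of 1 its log2 fold change was 2.04, and it was then called higher. Wnt11, which like Wnt5a acts mainly outside the beta-catenin branch, had 0.420, 0.956, and 0.474 FPKM against 0.418, 0.483, and 0.592 FPKM. These groups overlapped, and the log2 fold change was 0.10 (95% interval -0.32 to 0.51, limma adjusted p = 0.679).

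The other 11 ligands were under the filter, with highest values between 0.0196 FPKM for Wnt3a and 0.993 FPKM for Wnt9a. Wnt9a had 0.637, 0.993, and 0.392 FPKM in Gm31629-/- mice and 0.0487, 0.0834, and 0.0799 FPKM in WT mice, from 124 and 13 fragments in all. Wnt2, which like Wnt2b is known from mesenchyme, was found with 18, 7, and 11 fragments in Gm31629-/- mice and with 0, 2, and 0 in WT mice, a ratio of 18 (exact 95% interval 4.64 to 155, counting error only). Wnt16 had 6, 9, and 9 fragments in Gm31629-/- mice and 0 in each WT mouse, at least 8.01-fold higher when 3 fragments are allowed over the WT libraries together. Wnt3, the ligand of Paneth cells in the small intestine, was near the limit in both groups, with 11 and 7 fragments in all. Wnt3a and Wnt1 had 1 fragment in Gm31629-/- mice, with 0 and 1 in WT mice. Of the remainder, Wnt8b, Wnt10a, Wnt10b, Wnt9b, and Wnt7b did not exceed 0.580 FPKM in any mouse. Wnt8b had 3, 5, and 37 fragments in Gm31629-/- mice, and Wnt9b had 19, 1, and 0, so that 1 mouse carried most of the signal of each.

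Ligand genes of mouse often lie side by side, and 4 such pairs with a gap under 50000 bases were among the members. Wnt6 and Wnt10a on chromosome 1 are 6193 bases apart and had means of 1.33 and 0.0806 FPKM in Gm31629-/- mice. Wnt9a and Wnt3a on chromosome 11 are 16175 bases apart and had 0.674 and 0.00654 FPKM. In these pairs, therefore, 1 gene carried nearly all of the signal. The other pairs, Wnt9b with Wnt3 and Wnt10b with Wnt1, had means of at most 0.0802 FPKM.

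Secretion of Wnts needs PORCN, the acyltransferase that adds their lipid, and WLS, the carrier that brings them to the cell surface. Porcn (chromosome X, 8193848 to 8206525) had 3.06, 4.03, and 2.14 FPKM in Gm31629-/- mice and 0.577, 0.740, and 0.550 FPKM in WT mice. It was 4.94 times the WT mean (log2 fold change 1.30, SE 0.21, limma adjusted p = 0.00298) and was called in 6 of 6 fits that each left out 1 mouse. Wls was far more abundant and much more even, with 10.5, 10.7, and 10.9 FPKM in Gm31629-/- mice and 8.95, 9.12, and 8.23 FPKM in WT mice. Its groups did not overlap, yet its log2 fold change was 0.26 (95% interval -0.05 to 0.57, limma adjusted p = 0.143), and it was not called.

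Of 10 Frizzled receptor genes, 7 were tested, all with a WT mean of at least 0.5 FPKM, and 2 were called higher. Over all genes with such a WT mean, 11.4% were called higher. Fzd4, a receptor of Wnts and of norrin in vessels, had 5.33, 6.36, and 4.51 FPKM in Gm31629-/- mice and 0.893, 1.27, and 1.23 FPKM in WT mice. The lowest mutant value was well above the highest WT value (log2 fold change 1.58, SE 0.18, limma adjusted p = 0.000866). Fzd2 had 4.29, 3.46, and 3.20 FPKM against 0.753, 0.713, and 1.02 FPKM (log2 fold change 1.34, SE 0.17, limma adjusted p = 0.00128). It was the only 1 of the 14 called genes whose highest value was in Gm31629-/- mouse 1. Fzd4 and Fzd2 were each called in 6 of 6 fits that left out 1 mouse.

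Fzd7, a receptor used by intestinal stem cells, had 3.80, 6.36, and 3.02 FPKM against 1.84, 1.45, and 2.27 FPKM and missed the fold threshold (log2 fold change 0.88, SE 0.25, limma adjusted p = 0.0280). It was called higher with a pseudocount of 0.1 (log2 fold change 1.16). Fzd1, the Frizzled with the highest mean in Gm31629-/- mice, had 12.0, 59.5, and 32.6 FPKM against 8.51, 13.8, and 9.27 FPKM. Mouse 1 lay within the WT range while mice 2 and 3 were well above it, and Fzd1 was not called (log2 fold change 1.40, 95% interval 0.18 to 2.62, limma adjusted p = 0.0640). Without Gm31629-/- mouse 1 it was called higher (log2 fold change 2.0, limma adjusted p = 0.00354).

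Fzd5, the Frizzled of mature epithelial and Paneth cells, was the most abundant Frizzled in WT mice and went the other way. It had 18.9, 7.96, and 15.2 FPKM in Gm31629-/- mice and 23.0, 28.3, and 22.5 FPKM in WT mice. All mutant values were below all WT values, and mouse 2, highest for Fzd1, was lowest for Fzd5. The mean was 14.0 ± 5.56 FPKM against 24.6 ± 3.22 FPKM (SD, n = 3 each), and the change was not called (log2 fold change -0.84, 95% interval -1.53 to -0.15, limma adjusted p = 0.0537). It was called lower with median ratio scaling (log2 fold change -1.08, limma adjusted p = 0.0243) and without Gm31629-/- mouse 1 (log2 fold change -1.08, limma adjusted p = 0.0210). Fzd5 lies on chromosome 1 from 64730558 to 64737751, and 1233 of its 6915 exonic bases overlap Gm38058 on the other strand, a gene of at most 0.0248 FPKM here. Fzd8 had 4.03, 3.68, and 3.68 FPKM against 4.22, 4.20, and 5.77 FPKM (log2 fold change -0.25, 95% interval -0.64 to 0.15, limma adjusted p = 0.265). Fzd6 overlapped between the groups (log2 fold change 0.26, 95% interval -0.28 to 0.81, limma adjusted p = 0.386). Under the filter, Fzd3 had 0.310, 0.419, and 0.140 FPKM against 0.524, 0.429, and 0.569 FPKM, Fzd10 was found with 4 fragments against 30, and Fzd9 reached 0.557 FPKM and overlapped.

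The LRP co-receptors showed no higher call. Lrp5 (chromosome 19, 3584828 to 3686564) had 4.77, 8.10, and 7.28 FPKM in Gm31629-/- mice and 11.5, 11.0, and 13.6 FPKM in WT mice. All mutant values were below all WT values, and its log2 fold change of -0.78 (95% interval -1.26 to -0.29, limma adjusted p = 0.0206) passed the adjusted p but not the fold threshold. With median ratio scaling it was -1.01 and Lrp5 was called lower (limma adjusted p = 0.00809). Lrp6, its close relative, had 8.66, 6.57, and 7.41 FPKM against 7.08, 7.07, and 5.74 FPKM, with overlapping groups (log2 fold change 0.16, 95% interval -0.22 to 0.55, limma adjusted p = 0.449), and its log2 fold change was -0.07 with median ratio scaling. Lrp5 was the more abundant co-receptor in each WT mouse, at 60.9% to 70.3% of the FPKM of the pair, and made up 35.5% to 55.2% in Gm31629-/- mice.

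**Figure D2:**
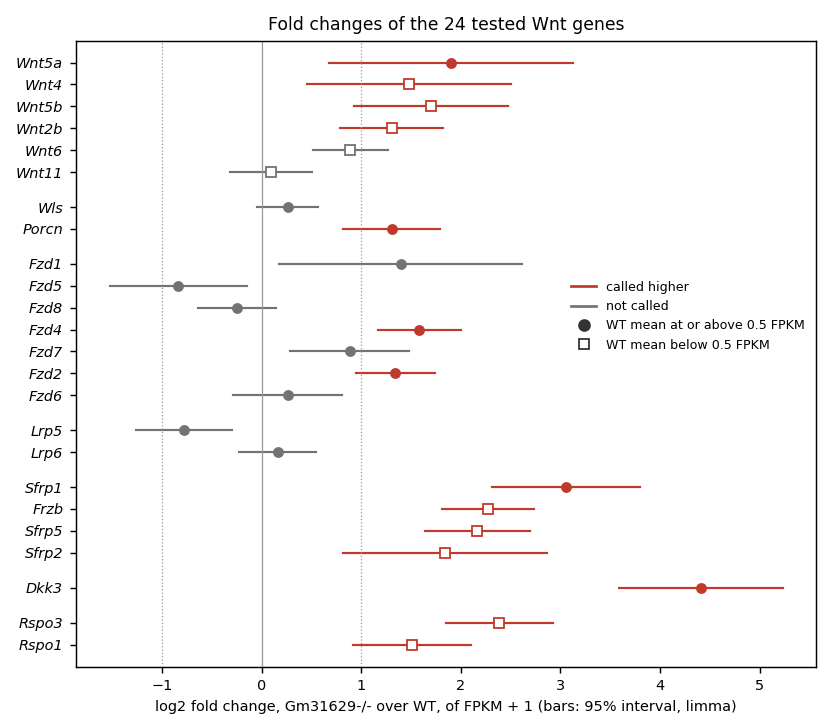
Log2 fold change (Gm31629-/- over WT, of FPKM + 1) of the 24 tested genes by role, with bars for the 95% interval from limma and dotted lines at the threshold of 1 on each side. Filled circles mark genes with a WT mean of at least 0.5 FPKM and open squares those below it, and Dkk3 and Sfrp1 lie farthest to the right while Fzd5, Lrp5, and Fzd8 lie to the left of 0.

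Of the 6 secreted inhibitors that bind Wnts, 4 were tested, and all 4 were called higher, where 18.4% of all tested genes were. Each of the 4 was called in 6 of 6 fits that left out 1 mouse. Frzb, Sfrp5, and Sfrp2 reached the filter only through Gm31629-/- mice, and Sfrp1 had a WT mean above it. Sfrp1 (ENSMUSG00000031548, chromosome 8, 23411502 to 23449632), a stromal Wnt trap, had 11.8, 25.2, and 12.1 FPKM in Gm31629-/- mice and 1.09, 1.35, and 0.548 FPKM in WT mice. Its mean of 16.4 ± 7.65 FPKM was 16.5 times the WT mean of 0.994 ± 0.408 FPKM (SD, n = 3 each, log2 fold change 3.06, SE 0.32, limma adjusted p = 0.000646). Frzb, also called Sfrp3 and first known from cartilage, had 4.03, 5.94, and 3.55 FPKM against 0.150, 0.137, and 0.0822 FPKM. The WT values came from 9, 8, and 5 fragments (log2 fold change 2.27, SE 0.20, limma adjusted p = 0.000388).

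Sfrp5, whose promoter is printed above, had 3.49, 5.56, and 2.81 FPKM in Gm31629-/- mice and 0.0569, 0.0292, and 0.140 FPKM in WT mice. With 415 fragments against 8, the ratio was 51.9 (exact 95% interval 26.1 to 121, counting error only), and the log2 fold change was 2.17 (SE 0.22, limma adjusted p = 0.000651). Sfrp2 had 0.808, 4.91, and 4.50 FPKM against 0.0753, 0.0258, and 0.148 FPKM. Mouse 1 again stood apart from mice 2 and 3 while still above every WT mouse (log2 fold change 1.85, SE 0.44, limma adjusted p = 0.0137, up to 0.0477 with 1 mouse left out). Of the exonic bases of Sfrp2, 16.1% overlap Gm26771 on the other strand, which had 0.352, 0, and 0 FPKM in Gm31629-/- mice and 0.0513 to 0.197 FPKM in WT mice. Sfrp4 was under the filter with 0.767, 1.06, and 0.795 FPKM against 0.0129, 0, and 0 FPKM, which was 202 fragments against 1. Wif1 was the exception of this group, with 0.112, 0.290, and 0.695 FPKM in Gm31629-/- mice and 0.624, 0.412, and 0.351 FPKM in WT mice, which overlapped. It was under the filter and not tested.

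Dkk3 had the largest log2 fold change of the 24 tested genes on the log2(FPKM + 1) scale. With voom on recovered fragments, Rspo3 and Rspo1 were above it, at 7.49 and 7.02 against 5.74. Dkk3 encodes a divergent member of the Dickkopf family whose effect on Wnt signaling is less clear than that of the LRP-binding members. Its level was 38.3, 53.1, and 21.5 FPKM in Gm31629-/- mice and 0.467, 1.34, and 0.444 FPKM in WT mice. Even the lowest mutant value was far above the highest WT value, and the mean of 37.6 ± 15.8 FPKM compared with 0.75 ± 0.511 FPKM (SD, n = 3 each, log2 fold change 4.41, SE 0.35, limma adjusted p = 0.000314). Dkk3 (ENSMUSG00000030772) lies on chromosome 7 from 112116017 to 112159057. Dkk2, which binds LRP co-receptors, had 55, 101, and 21 fragments in Gm31629-/- mice and 0 in each WT mouse, at least 59.0-fold higher, with 0.309 to 1.48 FPKM in Gm31629-/- mice. Dkk2 was under the filter.

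R-spondins were almost without signal in WT mice. Rspo3 (ENSMUSG00000019880, chromosome 10, 29452416 to 29535867), the main R-spondin of colonic stroma, had 3.55, 6.47, and 3.52 FPKM in Gm31629-/- mice and 0, 0.0539, and 0.0172 FPKM in WT mice. That was 771 fragments against 4, a ratio of 193 (exact 95% interval 75.1 to 710, counting error only), and a log2 fold change of 2.39 (SE 0.23, limma adjusted p = 0.000509). Rspo1, whose promoter is printed above, had 1.23, 3.21, and 1.46 FPKM from 44, 115, and 52 fragments, and 0 fragments in each WT mouse. It was at least 70.4-fold higher when 3 fragments are allowed over the WT libraries together (log2 fold change 1.51, SE 0.25, limma adjusted p = 0.00365). Rspo3 and Rspo1 were called in 6 of 6 fits that each left out 1 mouse. Both reached the filter only through Gm31629-/- mice, which favors a higher call. Rspo2, under the filter, had 48, 46, and 14 fragments against 0 in each WT mouse, at least 35.9-fold higher. Rspo4 had 1, 27, and 3 fragments against 0, 1, and 0, nearly all of them in mouse 2, and Rspo4os had 3 fragments against 2. In all, 5 of the 44 genes had 0 fragments in all 3 WT mice, namely Rspo1, Rspo2, Dkk2, Wnt16, and Wnt3a.

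All 27546 genes were also fitted with no filter. Of the 20 Wnt genes under the filter, 6 then had a limma adjusted p under 0.05, all with higher values in Gm31629-/- mice. Over all 27546 genes, those above the filter included, 18.2% did so, and the share among genes under the filter is not given here. The 6 genes were Sfrp4 (adjusted p = 0.00320), Wnt16 (0.0160), Wnt2 (0.0280), Rspo2 (0.0302), Dkk2 (0.0383), and Wnt9a (0.0221). None of the 6 passed the fold threshold, since at such low levels log2(FPKM + 1) moves little.

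Summed by role, the secreted parts of the system were low in WT mice and several times higher in Gm31629-/- mice, while the receptors were abundant in both groups, and the sums are given without a test. The 17 ligands together had 7.44, 25.5, and 20.2 FPKM in Gm31629-/- mice and 1.62, 2.76, and 2.13 FPKM in WT mice. The 6 Wnt-binding inhibitors had 21, 43.0, and 24.5 FPKM against 2.01, 1.95, and 1.27 FPKM. The 4 protein-coding R-spondins, without Rspo4os, had 5.32, 10.8, and 5.20 FPKM against 0, 0.0773, and 0.0172 FPKM. Frizzled receptors were closer, with 52.2, 89.6, and 64.6 FPKM against 42.7, 51.5, and 45.2 FPKM. Co-receptors were lower in each Gm31629-/- mouse, with 13.4, 14.7, and 14.7 FPKM against 18.6, 18.1, and 19.3 FPKM.

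The makeup of the roles differed as well. Of the ligand FPKM, Wnt11 made up 17.5% to 27.8% in WT mice but 2.34% to 5.65% in Gm31629-/- mice, although its own level overlapped between the groups. Wnt5b took 16.5% to 18.9% of the ligand sum in Gm31629-/- mice against 4.70% to 12.6%. Among Frizzled receptors, Fzd5 held 36.2%, 8.89%, and 23.5% of the sum in Gm31629-/- mice 1 to 3 against 49.7% to 55.0% in WT mice. Fzd1 held 23.0%, 66.4%, and 50.5% against 19.9% to 26.8%. The leading Frizzled was therefore Fzd5 in every WT mouse and in Gm31629-/- mouse 1, and Fzd1 in Gm31629-/- mice 2 and 3. Wif1 made up 21.1% to 31.1% of the Wnt-binding inhibitors in WT mice and at most 2.84% in Gm31629-/- mice, and Sfrp1 was the leading inhibitor in all 6 mice, at 43.2% to 69.0%.

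**Figure D3:**
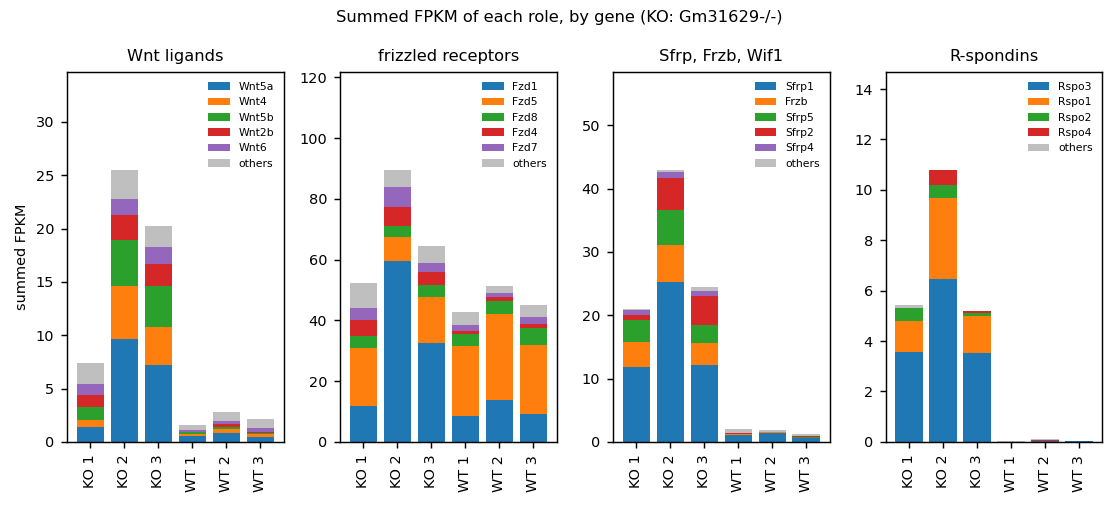
Summed FPKM of 4 roles in each mouse (KO: Gm31629-/-), stacked by gene, each panel with its own axis from 0, and with Rspo4os in the R-spondin panel. Ligands, Wnt-binding inhibitors, and R-spondins are far taller in the 3 Gm31629-/- mice than in the 3 WT mice, while the Frizzled bars are closer in height and shift from Fzd5 to Fzd1 in Gm31629-/- mice 2 and 3.

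The 3 Gm31629-/- mice did not share 1 level. Among the 14 called genes, mouse 2 was highest for 13 and mouse 1 for 1, while mouse 1 was lowest for 7 and mouse 3 for 7. The 7 genes lowest in mouse 1 were Wnt5a, Wnt4, Wnt5b, Wnt2b, Sfrp1, Sfrp2, and Rspo1, and the 7 lowest in mouse 3 were Porcn, Fzd4, Fzd2, Frzb, Sfrp5, Dkk3, and Rspo3. The genes were put in these groups by that order. The summed markers of fibroblasts stood at 293, 853, and 547 FPKM in mice 1 to 3 and those of endothelium at 57.4, 103, and 76.3 FPKM, both lowest in mouse 1 and highest in mouse 2. Those of enteric neurons and glia had 128, 213, and 48.9 FPKM, those of mesothelium 22.6, 41.9, and 3.44 FPKM, and those of macrophages 341, 669, and 326 FPKM, all highest in mouse 2 and lowest in mouse 3. Smooth muscle markers were in another order, with 2618, 1819, and 1604 FPKM. With 3 mice such orders are a description, and the link of any marker list to the Wnt genes was not tested.

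Other genes of the pathway outside the rule were examined by 3 lists, which share some genes. Of 28 further surface and secreted regulators, 20 were tested, 6 were called higher, and 1 was called lower, where 18.4% of all tested genes were called higher and 4.64% lower. Of the 6, Apcdd1, Gpc3, Sostdc1, and Ror1 reached the filter only through Gm31629-/- mice. Apcdd1, an inhibitor at the membrane, had 2.72, 6.16, and 2.53 FPKM against 0.232, 0.218, and 0.228 FPKM (log2 fold change 1.89, limma adjusted p = 0.00241). Ror2, a receptor of Wnt5a, had 4.84, 11.0, and 5.04 FPKM against 1.08, 1.30, and 1.28 FPKM (log2 fold change 1.76, limma adjusted p = 0.00350). Gpc3 and Sostdc1 followed with log2 fold changes of 1.65 and 1.57, and Ror1 and Ptk7 were also called. When 1 mouse was left out, 3 to 6 genes of the list were called higher, with 3 without Gm31629-/- mouse 2, without WT mouse 1, or without WT mouse 3. Celsr1, a planar polarity cadherin of epithelium, was the 1 gene called lower, with 3.63 FPKM against 13.5 FPKM on average (log2 fold change -1.66, limma adjusted p = 0.000927). The R-spondin receptor Lgr4 had a log2 fold change of 0.00 (limma adjusted p = 0.998), and its relative Lgr5, the stem cell marker, was under the filter with 0.0265, 0.0317, and 0.0477 FPKM against 0.406, 0.0866, and 0.534 FPKM.

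Of 37 intracellular pathway genes, 34 were tested, 6 were called higher, and 1 was called lower, with a median log2 fold change of 0.03. The share called higher was near the 18.4% of all tested genes, and 4.64% of all tested genes were called lower. Of the 6, 5 reached the filter only through Gm31629-/- mice, among them the 4 with the largest log2 fold changes, Nkd1 (2.58), Prickle1 (1.95), Prickle2 (1.89), and Daam2 (1.46), where the Naked and Prickle proteins act on Dishevelled and DAAM2 is a formin. Axin2, the feedback inhibitor that beta-catenin switches on, was called lower, with 0.582, 0.896, and 0.386 FPKM against 2.93, 1.53, and 4.77 FPKM (log2 fold change -1.26, SE 0.31, limma adjusted p = 0.0153), and the call was lost without WT mouse 1 or WT mouse 3. Beta-catenin itself, Ctnnb1, was not called, with 108 FPKM against 127 FPKM on average (log2 fold change -0.22, limma adjusted p = 0.321).

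Of 20 genes known as beta-catenin targets in the intestine, 14 were tested, 6 were called lower, and 1, Nkd1, was called higher, where 4.64% of all tested genes were called lower and 18.4% higher. Nkd1 reached the filter only through Gm31629-/- mice, and the 6 called lower had a WT mean of at least 0.5 FPKM. The median log2 fold change of the 14 was -0.85, with 10 negative and 4 positive. Among the positive ones, Tcf7 was higher without overlap, with 4.86 FPKM against 2.23 FPKM on average. It missed the fold threshold (log2 fold change 0.90, limma adjusted p = 0.0180). Under the filter, Lef1, Prox1, and Tnfrsf19 were higher without overlap, Lgr5 and Sp5 were lower without overlap, and Notum overlapped. Ccnd1, the gene of cyclin D1, had 2.56, 6.04, and 4.05 FPKM against 37.0, 16.3, and 34.5 FPKM (log2 fold change -2.51, limma adjusted p = 0.00223). Mmp7 (log2 fold change -1.94), Axin2, and Ephb2 (-1.22) followed, with no overlap between the groups. Myc and Sox9 were called lower too, Myc with overlapping groups. The summed epithelial markers were also lower in each Gm31629-/- mouse, as given above, and their part in the levels of these targets was not tested. WT mouse 2 had the lowest WT level of all 6 targets called lower, with 16.3 FPKM of Ccnd1 and 10.3 FPKM of Myc.

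**Figure D4:**
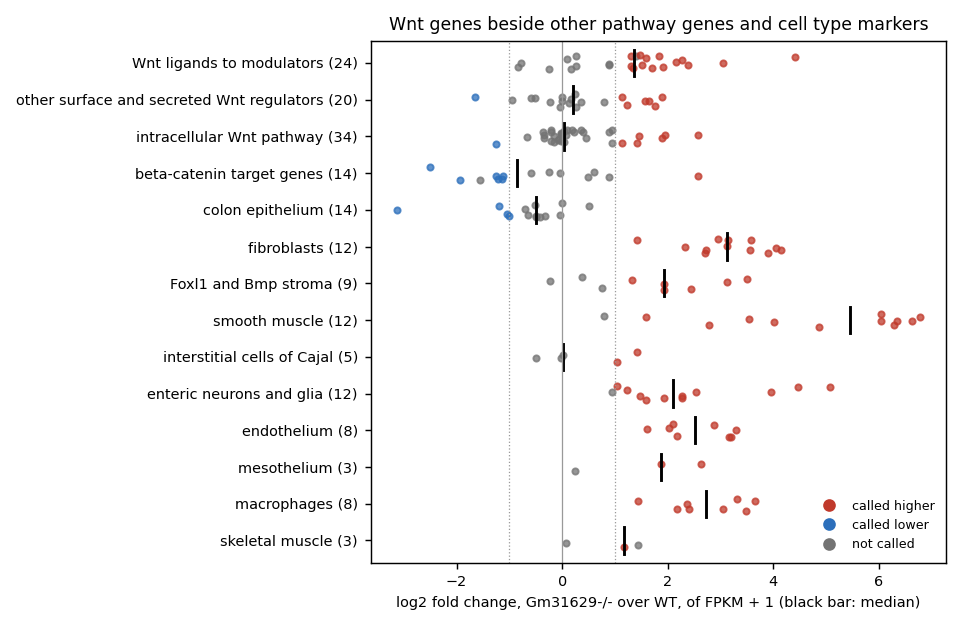
Log2 fold change (Gm31629-/- over WT, of FPKM + 1) of each tested gene of the Wnt rule, of 3 further pathway lists, and of 10 cell type marker lists, with the number of tested genes in brackets and a black bar at the median. The median is 1.37 for the Wnt genes, -0.85 for beta-catenin targets, -0.51 for epithelial markers, and 3.13 for fibroblast markers.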

How the data were processed

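Distal colon RNA of 3 Gm31629-/- and 3 WT mice was sequenced from an unstranded TruSeq RNA kit, so reads of a gene and of an antisense partner cannot be told apart. The submitters' processing notes name HISAT2 2.1.0, HTSeq 0.6.0, and GRCm38. The annotation is not given in the sources used here. The authors deposited FPKM values, 1 column per mouse, and columns were matched to mice by their labels. The differential test of the study, DEGseq, was not repeated.

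Symbols, locations, and exon lengths came from GENCODE M21 (GRCm38) and matched 27488 of 27546 identifiers. Fragment numbers were recovered from the FPKM step of 1 fragment. In each library, 96.3% to 97.2% of the values below or at 20 fragments lay within 0.1 of a whole number. A value of 0 in a group allows up to 3 fragments over its 3 libraries together. Intervals and this limit cover counting error only.

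Groups were compared, unpaired, on log2(FPKM + 1) by limma 3.58.1 (R 4.3.3), using lmFit and trended eBayes, with Benjamini-Hochberg adjustment over the 14657 genes with a mean of at least 0.5 FPKM. The script was tested on simulated data. Every Wnt gene was to be accounted for, with values in each mouse for called genes, for the most abundant gene of a role, and for genes past the adjusted p alone. Of each other pathway list, the called genes with the 4 largest changes in each direction were to be named, and Lgr4, Lgr5, Ctnnb1, Ror1, Ptk7, Myc, Sox9, and values of other uncalled genes were added after their values were seen. The Wnt genes, the lists, and the tests were chosen with earlier results of these data known. Figures were drawn with matplotlib 3.10.9. Gm31629 was not analysed here, so its level could not check the genotype labels.

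The alternatives tried changed 1 choice each: the pseudocount (0.1), the filter (none, or a mean of 1 FPKM), the scaling (equal FPKM sums, as in TPM, or median ratio), the variance model (no trend), the design (a replicate block, or 1 mouse fewer), the test (voom on recovered fragments), or the p (unadjusted).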

Additional observations from a re-analysis of the deposited data

How the results depend on the processing

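With no filter, the calls of Wnt5a and Wnt4 were lost (limma adjusted p = 0.0533 and 0.0661), leaving 12 Wnt genes called higher, and the other alternatives with all 6 mice gave 13 to 16. A pseudocount of 0.1 and voom on recovered fragments each added Wnt6 and Fzd7, moved the median log2 fold change of the tested Wnt genes from 1.37 to 2.13 and 2.32, and gave 3 other surface and secreted regulators called lower and 2 beta-catenin targets called higher, in place of 1 and 1. Median ratio scaling gave 2 Wnt genes called lower (Fzd5 at -1.08 and Lrp5 at -1.01) in place of 0, gave 2 surface regulators called lower, and turned the log2 fold change of Lrp6 to -0.067. When each mouse was left out in turn, 12 to 15 Wnt genes were called higher and 0 to 1 lower. In these fits 3 to 6 surface regulators were called higher and 1 to 2 lower, and 0 to 1 intracellular genes were called lower. Of the targets, 1 to 2 were called higher and 4 to 7 lower, with 4 lower without WT mouse 1 or WT mouse 3 and 7 without WT mouse 2. A second surface regulator was called lower without Gm31629-/- mouse 1 or without WT mouse 3, and a second target was called higher without WT mouse 3. With 2 mice left in a group, both groups shared 1 estimate of the spread. The cause of these changes was not tested. The mice share replicate numbers, and deviations of same-numbered mice from their group means correlated at 0.036, -0.108, and 0.014, so the numbers were not taken to pair them. With the replicate block, 15 Wnt genes were called higher, with Fzd1 added (limma adjusted p = 0.0260), and 0 lower, and Gm31629-/- mouse 1 correlated best with WT mouse 1, whereas mice 2 and 3 did not correlate best with their own number. Genes with few fragments in WT mice, such as Rspo3 with 4 and Sfrp5 with 8, are limited by depth.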

Other observations

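Markers of the Foxl1-expressing subepithelial stroma, cells known as a source of Wnt5a and Bmp ligands, were listed beside the Wnt genes. Their median log2 fold change was 1.94, and 6 of the 9 markers were called higher, where 18.4% of all tested genes were. For 5 of the 9 the groups did not overlap, with Gm31629-/- mice higher, where this held for 36.3% of all tested genes. Of the called markers, Bmp5 reached the filter only through Gm31629-/- mice, and Pdgfra is also in the fibroblast list. Bmp5 had 0.972, 5.44, and 4.95 FPKM in Gm31629-/- mice 1 to 3 and 0.121, 0.152, and 0.0397 FPKM in WT mice, and Bmp7 had 2.45, 15.4, and 12.6 FPKM against 1.18, 1.71, and 1.31 FPKM. For both, mouse 1 stood closest to the WT mice, whereas Bmp3 and Sox6 of the same list were highest in mouse 1 among the Gm31629-/- mice, with 23.4, 8.24, and 7.13 FPKM and 1.3, 0.274, and 0.591 FPKM in mice 1 to 3. Foxl1 itself had 0.121, 3.13, and 2.23 FPKM against 0.56, 0.616, and 0.256 FPKM, so that mouse 1 lay below every WT mouse, and it was not called (limma adjusted p = 0.222). Foxf1, a factor of gut mesenchyme, was higher in all 3 mice, with 19.5, 43.5, and 25.0 FPKM against 1.16, 2.69, and 1.01 FPKM. The link of these genes to the Wnt genes was not tested.

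Markers of the outer wall varied among the Gm31629-/- mice. Msln, a mesothelial marker, had 15, 24.5, and 2.70 FPKM against 0.537, 1.05, and 0.982 FPKM in WT mice, and 2 of 3 tested mesothelial markers were called higher. Kit and Ano1, which define interstitial cells of Cajal, overlapped between the groups (log2 fold changes near 0, limma adjusted p = 0.963 and 0.941), and 2 of the 5 markers of that list, Etv1 and Thbs4, were called higher. Of 3 tested skeletal muscle markers, 1, Ckm, was called higher, and Acta1 had 104 FPKM in mouse 1 and 6.24 FPKM in mouse 3. Over all tested genes, 18.4% were called higher. The called markers Upk3b of mesothelium, Etv1, and Ckm reached the filter only through Gm31629-/- mice.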
